A study of Mus musculus with 16 samples.

Results

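The Wnt pathway genes of cultured mouse epicardium were examined in explants treated with blebbistatin and in explants cultured without it. The set was chosen by name from the count table: the Wnt ligands, the Frizzled (Fzd) receptors, the Sfrp and Dkk families, and 20 further named co-receptors, inhibitors and effectors, of which 19 were in the table. It came to 38 genes of 15805, and all 38 passed the filter on low counts, so that each was tested. Not analysed here were 12 of 19 Wnt genes, Fzd9, Fzd10, Sfrp4, Sfrp5, Dkk2, Dkk4 and Notum.

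RNA sequencing covered 16 primary explants from C57BL6 mice, annotated as epicardial cells and grown on a 1% collagen gel, 8 with blebbistatin and 8 controls without blebbistatin. Blebbistatin is an inhibitor of the ATPase of myosin II motors, and the labels state that it was given to inhibit nonmuscle myosin II; its dose reads 20 with the unit written in 2 ways, mM and mm, so the concentration is not settled. Explants are tissue pieces from which cells spread in the dish, and each library is the mixture of cells of 1 explant. Whether controls received the solvent, and whether explants came from separate animals, the labels do not say, so p-values measure the spread between these explants.

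Wnt proteins are secreted lipid-modified ligands. They bind Frizzled receptors together with the co-receptors Lrp5 and Lrp6, which stabilises beta-catenin and turns on genes through the TCF/LEF transcription factors, or they act through Frizzled, Ror and Ryk receptors on cell polarity and the cytoskeleton without beta-catenin. Axin2, Nkd1, Rnf43, Znrf3, Notum and Lef1 are known as genes that beta-catenin signalling itself turns on. In the heart, Wnt signals are known to take part in the growth of the epicardium and in the formation of the mesenchymal cells that leave it.

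Total counts were 20176386 to 89620195 in blebbistatin libraries and 27065611 to 60321622 in controls. Blebbistatin 1 and 8 stood apart with the fewest genes detected, 15468 and 15492, against 15634 or more in the controls. Markers of the epicardium and mesothelium were present, 12 of 12 listed genes, with summed levels of 1570 to 3783 CPM (each count scaled to the library total) with blebbistatin and 2410 to 4430 CPM in controls. Smooth muscle markers summed to 333 to 779 CPM with blebbistatin and 968 to 1725 CPM in controls, without overlap, and Acta2 and Tagln made up nearly all of both sums, with Myh11 at 5.36 CPM or less in every library. Macrophage markers (9 of 9 listed) varied widely in both groups, 224 to 3339 CPM with blebbistatin and 293 to 4317 CPM in controls. Cardiomyocyte markers (5 of 9 listed) summed to 624 to 1167 CPM with blebbistatin and 403 to 978 CPM in controls, most of it Tnnt2, while Myh6 had a median of 0.026 CPM with blebbistatin and 0.25 CPM in controls. Summed Y-linked genes were above 20 CPM in 5 treated explants of 8 and in 2 controls of 8. Mitochondrial genes took 16.8% to 25.5% of the counts with blebbistatin and 13.8% to 18.9% in controls. The part of these differences in the results below was not tested except where a value is given beside the result.

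With blebbistatin 3 of the 38 genes rose and 0 fell: the ligand gene Wnt5a, the receptor gene Fzd1 and the transcription factor gene Lef1. The test was edgeR's quasi-likelihood test with Benjamini-Hochberg adjusted p under 0.05, the adjustment covering all 15675 tested genes. The 3 genes are 7.89% of the set, beside 0.606% of all tested genes called in either direction and 0.255% called higher. None of the 38 passed in the lower direction, where 0.351% of all genes did, although 4 of the set were lower at an unadjusted p under 0.05. DESeq2, which called 2.70% of all genes, called 4 of the 38 higher (Wnt5a, Lef1, Sfrp1, Fzd1) and 1 lower (Sfrp2). Limma voom, which called 0.785% of all genes, called 2 higher (Wnt5a, Fzd1) and 0 lower. At an unadjusted p under 0.05 stood 10 of the 38 (26.3%), beside 12.2% of all genes. The median log2 fold change was 0.17 over the 38 genes and 0.04 over all tested genes, and 23 of the 38 (60.5%) had a positive value, against 54.1% of all genes. Since these are whole explants, more cells that express a gene and more RNA per cell cannot be told apart.

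**Figure D1:**
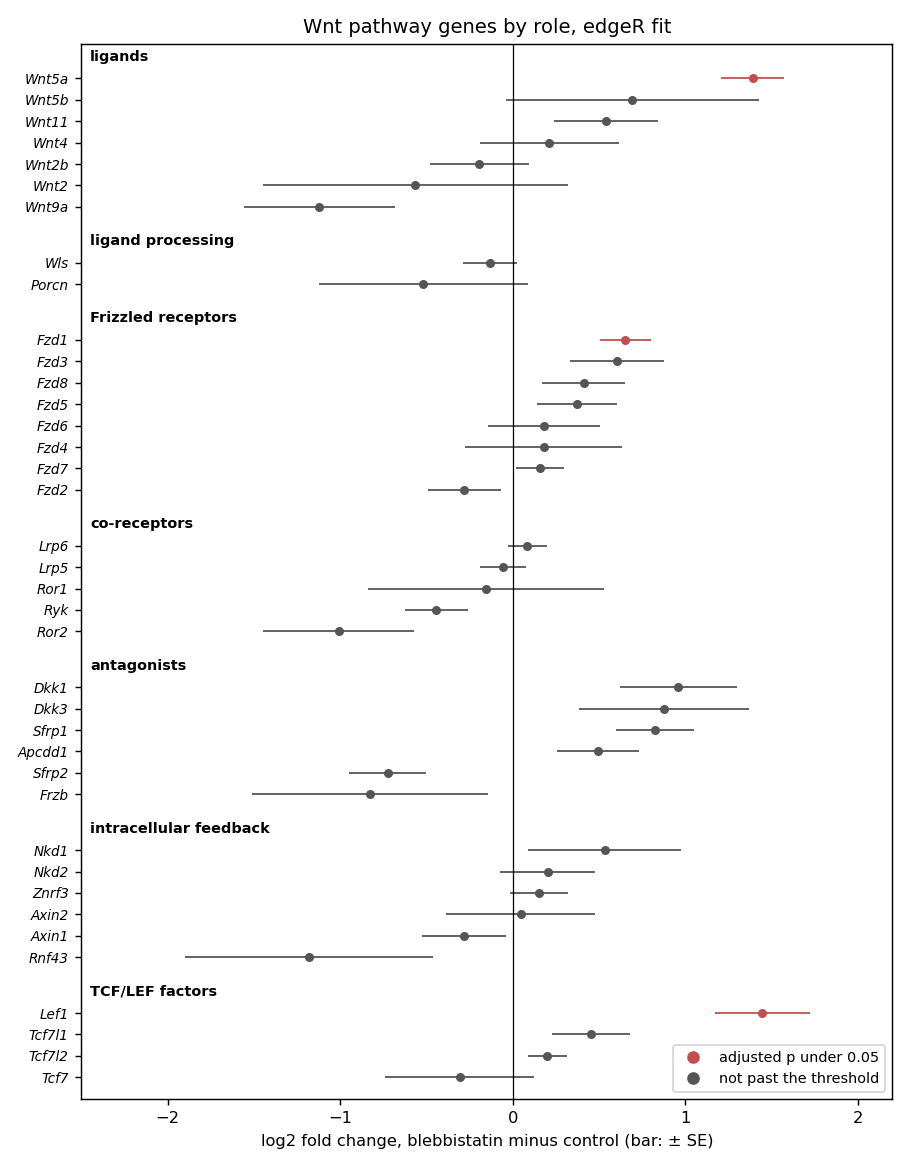
Log2 fold change of each of the 38 genes (blebbistatin minus control, 8 libraries each, edgeR; horizontal axis) with its standard error as a bar, grouped by role. Wnt5a at 1.39, Fzd1 at 0.65 and Lef1 at 1.45 passed the adjusted threshold of 0.05, all to the right of 0.

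The start regions of Lef1 and Fzd1 are shown because these genes rose; RefSeq windows (GRCm38.p6, from 250 bases before to 50 after a start) were matched for 25 of the 38 genes, and Wnt5a was not among them. Both strands were searched for the TCF/LEF core, written as CTTTGAA or CTTTGAT, and for the CArG box, the motif of serum response factor. Of 4 Lef1 starts the most upstream window (chr3:131110047-131110346, plus strand), a downstream window (chr3:131112541-131112840, plus strand) and the single Fzd1 window (chr5:4758167-4758466, minus strand) are printed 5′ to 3′, with a CArG box match in capitals.
Lef1, most upstream start: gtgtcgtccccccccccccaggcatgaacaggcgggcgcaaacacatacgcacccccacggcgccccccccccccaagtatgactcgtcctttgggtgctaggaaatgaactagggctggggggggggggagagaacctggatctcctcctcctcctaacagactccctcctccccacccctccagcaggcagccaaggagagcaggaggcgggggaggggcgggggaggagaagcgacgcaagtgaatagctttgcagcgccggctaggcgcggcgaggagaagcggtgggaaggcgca
Lef1, downstream start: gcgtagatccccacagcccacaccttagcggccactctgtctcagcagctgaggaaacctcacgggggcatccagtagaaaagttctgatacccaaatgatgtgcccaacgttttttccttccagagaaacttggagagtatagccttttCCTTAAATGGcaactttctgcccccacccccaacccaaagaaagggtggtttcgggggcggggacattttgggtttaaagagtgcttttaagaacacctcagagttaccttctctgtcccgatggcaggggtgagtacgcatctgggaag
Fzd1: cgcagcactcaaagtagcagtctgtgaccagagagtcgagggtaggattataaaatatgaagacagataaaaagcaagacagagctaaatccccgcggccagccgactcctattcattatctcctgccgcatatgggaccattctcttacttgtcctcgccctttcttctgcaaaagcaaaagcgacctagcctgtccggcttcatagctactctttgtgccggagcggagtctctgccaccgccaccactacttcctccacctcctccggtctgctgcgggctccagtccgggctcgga
No window of Lef1 or Fzd1 held the TCF/LEF core. Of the 4 Lef1 windows only the downstream window shown held a CArG box, with 1 match, and the Fzd1 window held 0. Over all 32851 windows 8.65% held a TCF/LEF core and 1.63% a CArG box. Among the 34 windows of the set the core was found in 3, of Dkk1, Wnt11 and Wnt5b, and the CArG box in 2, of Lef1 and Tcf7. A match describes these letters only.

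Among the ligands, the RNA of Wnt5a, a Wnt best known for signalling without beta-catenin (ENSMUSG00000021994, chromosome 14, 28504750 to 28527448, GRCm38), was the only one of 7 to rise. Its level was lowest at 185, in the middle at 341 and highest at 442 CPM with blebbistatin, against 92.0, 117 and 201 CPM in controls. All 8 treated explants lay above the control median and 7 above the highest control, and only blebbistatin 5 fell within the control range. The log2 fold change was 1.39 (SE 0.18, adjusted p = 0.00233), a 2.62-fold difference that ranked as the second smallest p of all tested genes. It rested on at least 5785 counts per library with blebbistatin and 2763 in controls, so counting error was small beside the spread between explants.

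An antisense gene, Gm2670, overlaps exons of Wnt5a. How reads of the overlap were counted is not known, because the strand setting of the counting is not given. In the annotation, antisense genes also overlap exons of Axin2, Lef1, Sfrp2 and Tcf7l1, and those were not analysed here. Gm2670 stood at 4.38 to 9.84 CPM with blebbistatin and 1.69 to 5.74 CPM in controls, a small level beside that of Wnt5a (log2 fold change 1.12, edgeR adjusted p = 0.0792). That level does not tell how many Wnt5a reads the overlap affected. In explants whose Y-linked genes summed to over 20 CPM, Wnt5a was at 325 to 442 CPM with blebbistatin (n = 5) and 92.0 and 153 CPM in controls (n = 2). In the others it was at 185 to 319 CPM with blebbistatin (n = 3) and 99.98 to 201 CPM in controls (n = 6). With Y-linked genes as a covariate its log2 fold change was 1.25 (edgeR adjusted p = 0.0158), and with the macrophage level 1.39 (edgeR adjusted p = 0.000793).

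The other 6 ligand genes did not pass. Wnt9a, for a ligand that signals through beta-catenin (chromosome 11, 59306928 to 59333552), had 1.20, 7.83 and 23.3 CPM as its lowest, median and highest level with blebbistatin and 13.4, 21.5 and 30.3 CPM in controls. Its spread was wide among treated explants, with 5 of 8 below the lowest control and blebbistatin 2 above the control median. Its log2 fold change was −1.12 (SE 0.44, edgeR adjusted p = 0.28). Wnt2b averaged 7.90 ± 2.57 CPM with blebbistatin against 9.02 ± 3.52 CPM in controls (both ± SD over 8 libraries), and its log2 fold change was −0.19. Wnt11 averaged 7.95 ± 3.88 CPM with blebbistatin and 5.46 ± 1.97 CPM in controls, and Wnt4 4.98 ± 3.89 CPM with blebbistatin and 4.29 ± 2.24 CPM in controls. Wnt5b, the closest relative of Wnt5a, was near the floor of the table, at 0 to 4.47 CPM with blebbistatin and 0.07 to 2.19 CPM in controls. Wnt2 ran from 0.05 to 5.49 CPM with blebbistatin and from 0.03 to 7.60 CPM in controls, and its log2 fold change of −0.56 had a standard error of 0.89.

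Levels of different genes were compared per kilobase of exon. On this scale Wnt5a led the ligands in every library, with 43.4 ± 10.6 CPM per kb with blebbistatin and 16.6 ± 4.797 CPM per kb in controls. Wnt9a came second at 2.89 ± 2.31 CPM per kb with blebbistatin and 6.32 ± 1.89 CPM per kb in controls. With blebbistatin the gap from Wnt9a to Wnt11 (1.92 ± 0.94) and Wnt2b (1.88 ± 0.61) was within the spread; in controls Wnt9a stood clear of Wnt2b (2.15 ± 0.84). Wnt4, Wnt2 and Wnt5b lay at 1.19 CPM per kb or less in both groups and could not be ordered.

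The make-up of the ligand transcripts differed between groups in the direction of Wnt5a. Of the summed ligand level per kb, Wnt5a made up 69.8% to 94.4% (median 81.9%) with blebbistatin and 45.0% to 70.9% (median 55.3%) in controls. These ranges met only at blebbistatin 5 and control 6. Wnt9a held 0.60% to 14.35% (median 4.48%) with blebbistatin and 14.45% to 34.8% (median 19.6%) in controls. The 6 ligands other than Wnt5a summed to 3.36 to 13.4 CPM per kb (median 9.18) with blebbistatin and 8.13 to 14.4 CPM per kb (median 12.8) in controls. These ranges overlapped, but the median and the lowest sum were lower with blebbistatin. The shares were looked at after the levels were known and are given without a test.

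**Figure D2:**
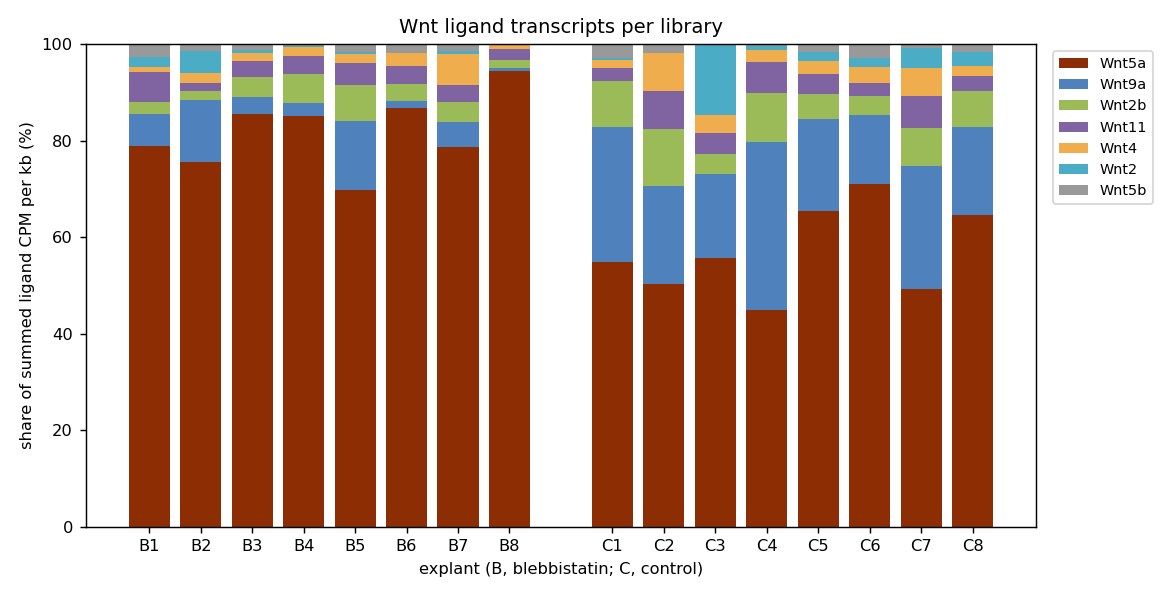
Share of each of the 7 Wnt ligand genes in the summed ligand level per kb of exon (vertical axis, %), one stacked bar per library, B1 to B8 with blebbistatin at the left and C1 to C8 controls at the right. Wnt5a holds 69.8% to 94.4% of the blebbistatin bars and 45.0% to 70.9% of the control bars.

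Neither gene of ligand export passed. Wls, the carrier that takes Wnt proteins to the cell surface (chromosome 3, 159839672 to 159938664), stood at 54.4 to 122 CPM with blebbistatin and 78.9 to 130 CPM in controls, with a log2 fold change of −0.13 (95% interval −0.44 to 0.17). Porcn, the enzyme that attaches the lipid to Wnt proteins, was scarce at 1.00 ± 0.75 CPM under blebbistatin and 1.44 ± 0.86 CPM in controls, and its log2 fold change of −0.52 had an interval of −1.70 to 0.67.

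Of the 8 Frizzled receptor genes 1 rose and 7 did not pass. The log2 fold change was positive for 7 of the 8 (87.5%), beside 54.1% of all tested genes. Its median was 0.28 over the 8 genes and 0.04 over all tested genes. Fzd1 (ENSMUSG00000044674, chromosome 5, 4753839 to 4758035), a single-exon receptor gene, had 51.1, 65.3 and 84.4 CPM as its lowest, median and highest level with blebbistatin and 28.0, 40.9 and 57.6 CPM in controls. All 8 treated explants were above the control median, 6 were above the highest control, and blebbistatin 2 and 4 lay below control 2. For Fzd1 the log2 fold change was 0.65 (SE 0.15, adjusted p = 0.0464), a 1.57-fold difference just inside the threshold. Without single libraries its adjusted p ran from 0.032 to 0.0949 and passed in 3 of 16 edgeR fits, those without blebbistatin 2, blebbistatin 4 or control 2. It was 0.0926 without blebbistatin 1 and 8 and 0.126 with Y-linked genes as a covariate, while the log2 fold change stayed between 0.59 and 0.73. In explants above that Y-linked limit Fzd1 was at 52.1 to 73.9 CPM with blebbistatin (n = 5) and 38.9 and 48.0 CPM in controls (n = 2), and in the others at 51.1 to 84.4 CPM with blebbistatin (n = 3) and 28.0 to 57.6 CPM in controls (n = 6).

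Fzd7 was the most abundant Frizzled per kb, at 17.6 ± 3.23 CPM per kb with blebbistatin and 15.8 ± 2.99 CPM per kb in controls, with a log2 fold change of 0.16 (edgeR adjusted p = 0.702). Fzd1 followed at 15.7 ± 2.66 CPM per kb with blebbistatin and 9.98 ± 2.23 CPM per kb in controls. Thus Fzd1 and Fzd7 did not differ beyond their spread in treated explants, whereas in controls Fzd7 stood above Fzd1 by more than 1 SD of either gene. Fzd2, a receptor that Wnt5a is known to bind, averaged 19.9 ± 7.85 CPM with blebbistatin and 24.2 ± 5.29 CPM in controls (log2 fold change −0.28, edgeR adjusted p = 0.647), and 7 of 8 treated explants were below the control median. Blebbistatin 8 held 37.6 CPM of Fzd2, and without it the log2 fold change was −0.48 (edgeR adjusted p = 0.268). Fzd3, a receptor known for axon guidance and cell polarity, ranged from 8.55 to 23.2 CPM with blebbistatin and from 4.41 to 15.3 CPM in controls, and had a log2 fold change of 0.61 with an unadjusted p under 0.05 (edgeR adjusted p = 0.372). Fzd6 had its widest spread with blebbistatin, 8.18 to 60.5 CPM against 14.8 to 29.7 CPM in controls, since blebbistatin 1 held 60.5 CPM. Fzd4, Fzd5 and Fzd8 had log2 fold changes of 0.18, 0.37 and 0.41, each with an interval that included 0.

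Neither co-receptor gene of the beta-catenin branch passed. Lrp6, the most abundant co-receptor gene per kb, averaged 308 ± 46.5 CPM with blebbistatin and 291 ± 40.7 CPM in controls, with a log2 fold change of 0.08 and a 95% interval of −0.14 to 0.31. Lrp5 averaged 73.8 ± 14.6 CPM with blebbistatin and 76.8 ± 13.3 CPM in controls, with an interval of −0.32 to 0.21 around −0.06. These intervals exclude a 2-fold change of either gene.

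The receptors of the other branch did not pass either. Ryk, a Wnt receptor of the tyrosine kinase-like class (chromosome 9, 102834917 to 102908305), had 23.0, 41.9 and 74.3 CPM as its lowest, median and highest level with blebbistatin and 53.7, 59.8 and 79.2 CPM in controls. Of the treated explants 6 lay below the lowest control, while blebbistatin 1 was above all controls but 1. For Ryk the log2 fold change was −0.44 (SE 0.18, edgeR adjusted p = 0.308), and the coefficient of variation was 35.1% with blebbistatin against 12.7% in controls. Ror2, a receptor of Wnt5a, was scarce at 1.13 to 3.28 CPM with blebbistatin and 1.56 to 15.8 CPM in controls. All 8 treated explants lay below the control median of 3.37 CPM, and the log2 fold change was −1.01 (edgeR unadjusted p = 0.0325, adjusted p = 0.35). Control 3 alone held 15.8 CPM, the next control 4.46 CPM, and without control 3 the log2 fold change was −0.38. Ror1 was scarcer still, at 1.84 ± 1.75 CPM under blebbistatin and 2.06 ± 1.56 CPM in controls.

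Of 6 antagonist genes 0 passed edgeR, while 3 had an unadjusted p under 0.05, and those 3 did not share a direction. Sfrp1, a secreted protein that binds Wnts and Frizzleds (ENSMUSG00000031548, chromosome 8, 23411502 to 23449632), had 68.8, 89.7 and 200 CPM as its lowest, median and highest level with blebbistatin and 38.1, 59.1 and 94.9 CPM in controls. All 8 treated explants were above the control median and 3 were above the highest control. Its log2 fold change was 0.82 (SE 0.22, edgeR adjusted p = 0.0979), 0.0174 by DESeq2 and 0.105 by limma voom. The highest treated values were those of blebbistatin 3 and 6, and without blebbistatin 6 the log2 fold change was 0.64 (edgeR adjusted p = 0.21). With Y-linked genes as a covariate it was 0.55 (edgeR adjusted p = 0.429), and with the macrophage level as a covariate 0.81, which passed (edgeR adjusted p = 0.0277).

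Sfrp2, a related protein (ENSMUSG00000027996, chromosome 3, 83766321 to 83774316), stood the other way, at 6.45, 11.2 and 13.9 CPM as its lowest, median and highest level with blebbistatin and 8.53, 16.3 and 28.1 CPM in controls. All 8 treated explants were below the control median, and the groups overlapped only through control 8, which held 8.53 CPM. Its log2 fold change was −0.72 (SE 0.22, edgeR adjusted p = 0.157), with 0.049 by DESeq2 and 0.189 by limma voom. Per kb, the ratio of Sfrp1 to Sfrp2 was 3.22 to 8.31 (median 4.46) with blebbistatin and 0.886 to 2.30 (median 2.04) in controls. The ratio did not overlap between groups, although each gene did; it was formed after both levels were seen and carries no test.

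Among the Dickkopf genes, Dkk1, a secreted blocker of Lrp5 and Lrp6, ranged from 2.78 to 14.0 CPM (median 6.69) with blebbistatin and from 2.61 to 6.16 CPM (median 3.70) in controls. In 5 treated explants Dkk1 was above the highest control and in 2 it was below the control median, and its log2 fold change of 0.96 (SE 0.34) did not pass (edgeR adjusted p = 0.225). Dkk3, a divergent member of the family, averaged 16.1 ± 7.04 CPM with blebbistatin and 8.73 ± 9.34 CPM in controls. Its control spread came from control 6 at 30.8 CPM, as the next control stood at 9.32 CPM, and the log2 fold change of 0.88 (edgeR adjusted p = 0.501) was 1.52 without control 6 (edgeR adjusted p = 0.0779). Frzb, another secreted binder of Wnts, was scarce at 0 to 6.34 CPM with blebbistatin and 1.56 to 12.4 CPM in controls. Apcdd1, a membrane inhibitor, averaged 11.0 ± 3.92 CPM with blebbistatin and 7.80 ± 1.91 CPM in controls (log2 fold change 0.49, edgeR adjusted p = 0.413).

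**Figure D3:**
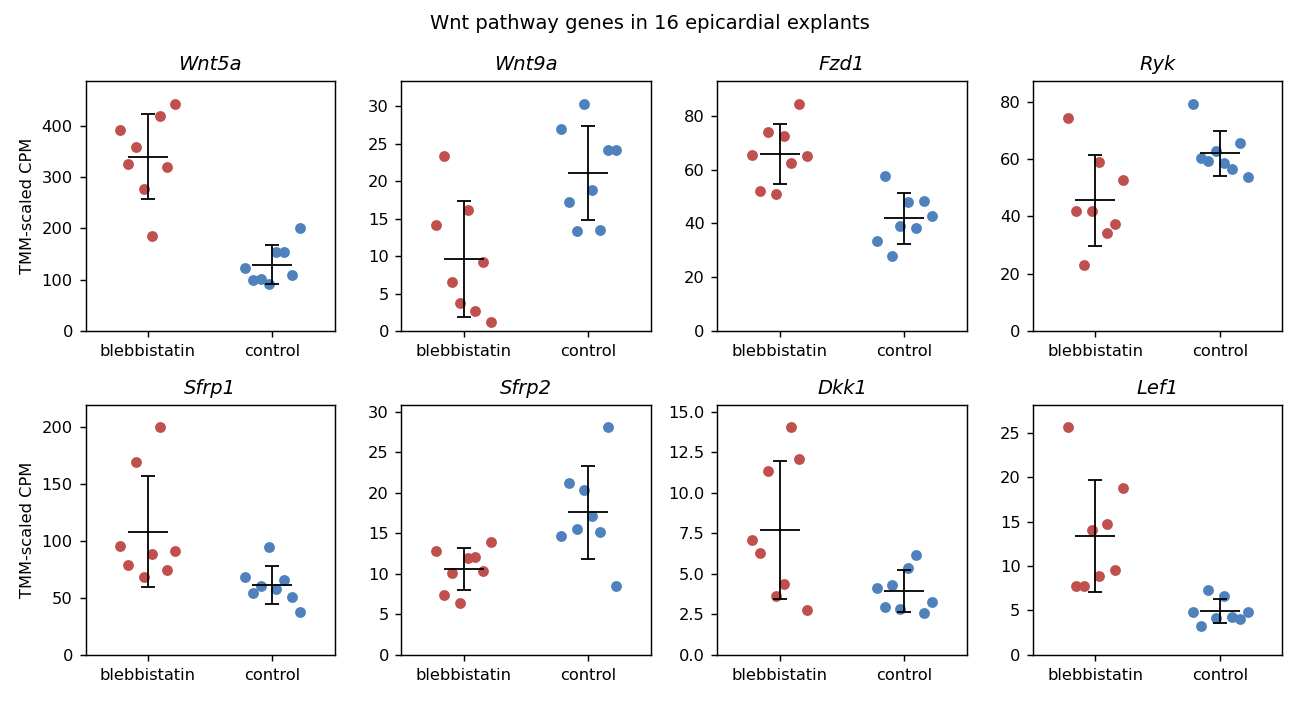
TMM-scaled CPM (vertical axes, each from 0) of 8 Wnt pathway genes, one point per library, with blebbistatin at the left and control at the right of each panel; the line is the mean and the bar ± SD of 8 libraries. Lef1 points do not overlap between groups, and Wnt5a overlaps by 1 treated explant. Fzd1 overlaps through blebbistatin 2 and 4, which lie below control 2, and Wnt9a, Ryk, Sfrp1, Sfrp2 and Dkk1 overlap.

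Of 6 genes of feedback inside the cell or at its surface 0 passed edgeR. None had an unadjusted edgeR p under 0.05, beside 12.2% of all tested genes. By DESeq2 and by limma voom 0 of the 6 were called as well. Axin2, a scaffold of beta-catenin breakdown whose RNA is widely read as a measure of beta-catenin signalling (chromosome 11, 108920349 to 108950783), had 2.81, 4.40 and 11.7 CPM as its lowest, median and highest level with blebbistatin and 1.15, 5.02 and 14.0 CPM in controls. The groups overlapped throughout. Its log2 fold change of 0.04 had a 95% interval of −0.80 to 0.89, so that a change within these bounds in either direction is not excluded. The sign of the Axin2 value turned in several alternatives. Nkd2, an inhibitor of Dishevelled, was the most abundant of these genes per kb at 7.01 ± 2.70 CPM per kb with blebbistatin and 6.10 ± 2.36 CPM per kb in controls. Znrf3, a ubiquitin ligase that removes Frizzleds, averaged 31.4 ± 5.61 CPM with blebbistatin and 28.3 ± 6.93 CPM in controls, with an interval of −0.18 to 0.48 around 0.15. Axin1 averaged 13.9 ± 4.97 CPM with blebbistatin and 16.9 ± 6.21 CPM in controls. Nkd1 stood at 6.57 ± 3.63 CPM under blebbistatin and 4.55 ± 3.48 CPM in controls. Rnf43, the relative of Znrf3, had a mean of 0.70 CPM with blebbistatin and 1.58 CPM in controls, and its log2 fold change of −1.18 (SE 0.72) did not pass (edgeR adjusted p = 0.545).

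Of the 4 TCF/LEF transcription factor genes 1 rose and 3 did not pass. Lef1 (ENSMUSG00000027985, chromosome 3, 131110471 to 131224356), the gene for lymphoid enhancer factor 1, had 7.75, 11.8 and 25.6 CPM as its lowest, median and highest level with blebbistatin and 3.25, 4.56 and 7.26 CPM in controls. Every treated explant exceeded every control, so that Lef1 was the 1 gene of 38 (2.63%) without overlap, beside 0.242% of all tested genes. The log2 fold change was 1.45 (SE 0.28, adjusted p = 0.0198), a 2.73-fold difference. The highest treated values were those of blebbistatin 1 and 8, at 25.6 and 18.8 CPM, and the others lay between 7.75 and 14.7 CPM, still above the highest control. Without blebbistatin 1 and 8 the log2 fold change was 1.08 (edgeR adjusted p = 0.063). It was 1.295 with Y-linked genes as a covariate (edgeR adjusted p = 0.113) and 1.29 by limma voom (adjusted p = 0.0543), while each fit that left out 1 library passed, with edgeR adjusted p up to 0.0495. In explants above the Y-linked limit Lef1 was at 7.75 to 25.6 CPM with blebbistatin (n = 5) and 4.20 and 6.59 CPM in controls (n = 2), and in the others at 8.92 to 14.1 CPM with blebbistatin (n = 3) and 3.25 to 7.26 CPM in controls (n = 6).

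Per kb, Lef1 was not an abundant factor of its family even with blebbistatin. It stood at 1.52 ± 0.72 CPM per kb with blebbistatin and 0.56 ± 0.15 CPM per kb in controls. Tcf7l1, often a repressor of Wnt targets, was the most abundant at 10.2 ± 4.41 CPM per kb with blebbistatin and 7.46 ± 1.68 CPM per kb in controls, and Tcf7l2 followed at 5.71 ± 0.50 CPM per kb with blebbistatin and 4.97 ± 0.72 CPM per kb in controls. Their log2 fold changes were 0.45 for Tcf7l1 (edgeR adjusted p = 0.438) and 0.20 for Tcf7l2 (edgeR adjusted p = 0.503). Without blebbistatin 6, which held 73.6 CPM of Tcf7l1, that gene's value was 0.27 (edgeR adjusted p = 0.711). Tcf7 averaged 0.85 ± 0.54 CPM per kb with blebbistatin and 1.05 ± 0.59 CPM per kb in controls. With blebbistatin Tcf7 had the lowest mean per kb of the 4 and in controls Lef1 did. In both groups the gap between these genes was smaller than the larger of their SDs and larger than the smaller one. The order in controls depended on the exon lengths used, 8788 bases for Lef1 and 2625 for Tcf7. In CPM, not divided by length, Lef1 averaged 4.91 and Tcf7 2.76 in controls.

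**Figure D4:**
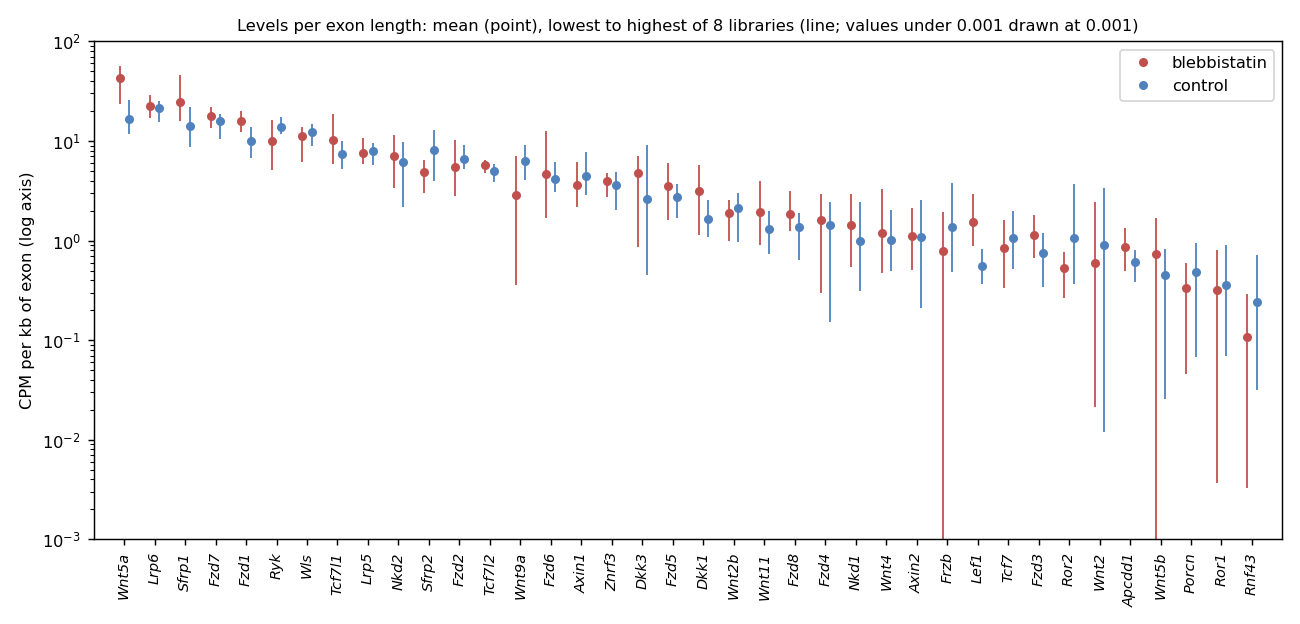
Mean level per kb of exon (points; vertical log axis, CPM per kb) of the 38 genes, ordered by their mean over both groups, with lines from the lowest to the highest of 8 libraries for blebbistatin (left of each pair) and control (right). Wnt5a leads with 43.4 CPM per kb with blebbistatin and 16.6 CPM per kb in controls, where Lrp6 with 21.2 CPM per kb is higher.

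Within each group the 3 genes that rose did not vary together in a way that could be shown with 8 explants. Over 6 relations of log2 levels, 3 pairs in 2 groups, none passed an exact permutation test. The closest among treated explants was Wnt5a with Lef1, with Pearson's r = 0.50 (exact permutation p = 0.178, adjusted over 6 relations 0.535) and Spearman's rho = 0.52 (exact permutation p = 0.197, adjusted 0.59); without the 2 explants farthest from the median of Wnt5a r was 0.36. In controls the same pair had r = 0.21 (exact permutation p = 0.6, adjusted 0.886) and rho = 0.43 (exact permutation p = 0.299, adjusted 0.598), and r = 0.46 without 2 explants. Fzd1 and Lef1 in controls had r = −0.60 (exact permutation p = 0.118, adjusted 0.535) and rho = −0.62 (exact permutation p = 0.115, adjusted 0.59), and r was 0.28 without the 2 explants farthest from the median of Fzd1.

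Variation between explants was itself uneven over the set. The coefficient of variation had a median of 41.3% with blebbistatin, from 8.81% for Tcf7l2 to 142% for Wnt2, and of 32.6% in controls, from 12.7% for Ryk to 122% for Wnt2. Blebbistatin 8 held the lowest treated level of 11 of the 38 genes and the highest of 6, and control 3 the highest control level of 10. Genes with a mean under 5 CPM numbered 9 with blebbistatin and 12 in controls.

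Other genes of the pathway, 67 in the table of 75 listed by name, were read beside the set: 0 rose, 1 fell and 66 did not pass, with a median log2 fold change of 0.01. Of the 67, 8 (11.9%) had an unadjusted p under 0.05, beside 12.2% of all tested genes, and the 1 that fell stands beside 0.351% of all genes called lower. The gene that fell was Gpc4, for glypican 4, a cell surface proteoglycan known to modulate Wnt signals (chromosome X). Its lowest, median and highest levels were 20.8, 23.6 and 51.5 CPM with blebbistatin and 24.7, 60.5 and 68.9 CPM in controls, so the groups overlapped. By edgeR the log2 fold change was −1.01 (SE 0.21, adjusted p = 0.0315). It passed in 4 of 16 fits without 1 library (without blebbistatin 1 or 5, or control 5 or 6), with adjusted p from 0.00463 to 0.0737, and was 0.131 with the Y-linked covariate.

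The next genes by p did not pass. Rspo2, for a secreted protein that strengthens Wnt signals, had 0.06 to 8.94 CPM (median 2.80) with blebbistatin and 0 to 0.94 CPM (median 0.04) in controls. Its log2 fold change was 3.81 with a wide standard error of 1.12 (edgeR adjusted p = 0.128). Amer1, for a membrane recruiter of the breakdown complex, averaged 40.8 ± 11.3 CPM with blebbistatin and 29.5 ± 1.998 CPM in controls (log2 fold change 0.47, edgeR adjusted p = 0.157). Vangl2, for a core protein of planar cell polarity, averaged 44.4 ± 21.5 CPM with blebbistatin and 26.4 ± 9.96 CPM in controls (0.75, edgeR adjusted p = 0.276).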

How the data were processed

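Per the labels' protocols, RNA from an RNeasy kit went into Ovation amplification and Nextera XT library preparation. The authors deposited raw read counts per gene, a column per explant. The submitters' processing notes name HTSeq 0.6.1p1, edgeR, SAMtools 1.3, Bowtie2 2.2.6.0 and TopHat2 2.1.0, and build mm10 (GRCm38). Their settings, strand included, and the annotation: not given in the sources used here. Each gene of the deposited table exceeded 1 CPM in at least 4 of 16 libraries, as tested on the table; 1 CPM stood for 20.2 counts in the shallowest library.

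Counts were filtered with filterByExpr, scaled by TMM and tested with edgeR 4.0.16 (R 4.3.3; robust quasi-likelihood fit, group as the only term), with adjustment over all 15675 tested genes. DESeq2 1.42.0 and limma 3.58.1 (voom) served as alternatives. Standard errors are the log2 fold change divided by the square root of F, and intervals are 1.96 standard errors to each side. These 95% intervals are approximate and can be narrower than the test implies. For Apcdd1 the interval was 0.03 to 0.96, although its unadjusted p by edgeR was 0.0508. Levels are TMM-scaled CPM; marker sums are unscaled CPM. Exon lengths and positions are from GENCODE M21 (GRCm38), promoter windows from RefSeq. The exon length of a gene is the union of all its annotated exons. It can be longer than the transcripts expressed, so the order of genes per kb, and the ligand shares, depend on it. The tests were also run on simulated counts with 200 changed genes. Those counts were drawn independently, without outlying explants or shared differences in Y-linked or macrophage genes, so the runs do not vouch for the calls here.

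The genes, lists and tests were chosen with earlier results of these data known. Genes named with values are those at an unadjusted p under 0.05, the 3 most abundant per kb in each role, and Axin2, Lef1, Ror2, Ryk and Fzd2; other values are given to account for the rest of the set. Other pathway genes are named if called or among the 4 of smallest p.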

Additional observations from a re-analysis of the deposited data

Results flagged for a closer look

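In 4 of 46 groups of 8 libraries tested over the named genes, 1 library lay far from the others by Dixon's test on CPM without a log. By chance the test flags about 1 group in 20 where values are normally spread, which CPM need not be. Each flagged value was the highest of its group, so the 4 flags are not read as more than chance. Ror2 stood at 15.8 CPM in control 3, against 4.46 CPM in the next control. Dkk3 stood at 30.8 CPM in control 6, against 9.32 CPM in the next. Fzd2 stood at 37.6 CPM in blebbistatin 8, against 20.7 CPM in the next treated explant. Ryk stood at 79.2 CPM in control 1, against 65.6 CPM in the next.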

How the results depend on the processing

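Wnt5a passed in all 25 alternatives to the edgeR fit, with log2 fold changes from 1.25 to 1.51 and adjusted p up to 0.0158. Lef1 passed in 22 and Fzd1 in 9 of 25. The number of genes called higher in the set, 3 in the edgeR fit, was 4 with the macrophage covariate (Sfrp1 added) and 4 with DESeq2, 2 with limma voom, 1 with Y-linked genes as a covariate and 1 without blebbistatin 1 and 8, and 2 to 3 in fits without single libraries; 1 was called lower by DESeq2, and 0 in each fit without 1 library. Over all genes there were 95 calls, against 424 with DESeq2, 277 with the macrophage covariate, 22 with Y-linked genes and 44 to 206 without single libraries. Of the other pathway genes 0 were called with Y-linked genes, and 0 to 1 without single libraries. With the replicate block edgeR made 177 calls over all genes and 2 in the set, as Fzd1 had an adjusted p of 0.0607. Deviations of same-numbered explants from their group means correlated at 0.004 to 0.279, none below 0, and 2 of 8 matched their own number best. The labels state no pairing, so the main fit has no block. Whether same-numbered explants shared a batch or an animal was not tested. The log2 fold change of Axin2 was −0.0173 with the macrophage covariate, −0.13 without blebbistatin 1 and 8, and −0.17 to 0.36 without single libraries. The cause of these shifts was not tested. No direction of another named gene turned. Rnf43, Wnt2 and Wnt5b, all under 5 CPM on average, spread widely between explants (standard errors of 0.72, 0.89 and 0.73 on the log2 scale).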
